A study of Mus musculus with 8 samples.

Results

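MAP kinase phosphatases are the enzymes that switch MAP kinases off. The 10 genes described here, Dusp1, Dusp2, Dusp3, Dusp4, Dusp5, Dusp6, Dusp7, Dusp8, Dusp10 and Dusp16, were taken by symbol from a table of 55487 genes, and all 10 averaged 1 TPM or more over the libraries, the level that 11796 genes reached and at which genes were tested. They were measured by RNA sequencing in J774A.1, a mouse macrophage cell line. Cells of the LPS group (4 libraries) received LPS at 1 μg/mL for 24 h, and cells of the LPS + UDCA group (4 libraries) received the same LPS together with 1 mM UDCA for 24 h. LPS is a component of the Gram-negative outer membrane that activates macrophages, and UDCA (ursodeoxycholic acid) is a bile acid. Both groups carried LPS, cells without LPS were not analysed here, and so each value compares LPS-treated cells with and without UDCA. The sample labels do not state whether the libraries of a group came from separate cultures, so the p-values measure the spread between these libraries, which may be technical.

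MAP kinases (ERK, JNK and p38) are activated by phosphorylation of a threonine and a tyrosine in the activation loop, and dual-specificity phosphatases remove both phosphates. Dusp1, Dusp2, Dusp4 and Dusp5 are nuclear and are typically induced by the kinases they inactivate. Dusp6 and Dusp7 are cytoplasmic and prefer ERK, while Dusp8, Dusp10 and Dusp16 prefer JNK and p38. Dusp3 is a small phosphatase that lacks the MAP kinase-binding domain of the others. In macrophages exposed to LPS, some of these phosphatases, Dusp1 in particular, are known for limiting MAP kinase signalling and with it the output of inflammatory cytokines. The same role cannot be taken for every member.

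With UDCA, the phosphatases moved in opposite directions by class. Dusp2 and Dusp5 of the nuclear class and both cytoplasmic ERK phosphatases, Dusp6 and Dusp7, fell by more than 2-fold, Dusp8 of the JNK and p38 class rose from 1.07 to 5.01 TPM, and Dusp16 of the same class rose from 9.35 to 17.1 TPM. Dusp4 and Dusp3 fell by less, and Dusp1 and Dusp10 did not pass the test.

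The sequences upstream of Dusp8 and Dusp1 are shown because they are the members whose 250 bases before the RefSeq start held a full cyclic AMP response element (CRE), the 8 letters TGACGTCA, on which factors of the CREB and ATF families are known to bind. Both windows are on the minus strand of GRCm38.p6, at chr7:142095285-142095534 for Dusp8 and chr17:26508473-26508722 for Dusp1, and are printed in the direction of transcription with the element in capitals.
Dusp8: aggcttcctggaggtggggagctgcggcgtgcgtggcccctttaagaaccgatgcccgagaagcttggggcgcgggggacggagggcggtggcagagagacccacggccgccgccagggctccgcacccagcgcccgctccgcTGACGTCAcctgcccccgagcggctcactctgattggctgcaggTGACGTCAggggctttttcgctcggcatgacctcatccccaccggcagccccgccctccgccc
Dusp1: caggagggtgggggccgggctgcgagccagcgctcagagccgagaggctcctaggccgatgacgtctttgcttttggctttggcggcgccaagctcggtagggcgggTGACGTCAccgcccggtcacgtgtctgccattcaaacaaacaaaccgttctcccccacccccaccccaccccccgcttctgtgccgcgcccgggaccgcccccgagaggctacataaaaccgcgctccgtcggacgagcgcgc
Dusp8 held the element 2 times, with first bases at positions -107 and -63 from the start, and Dusp1 held it once, at position -143. Over the windows of 11187 tested genes, 2.68% held the element and 0.0805% held it at least 2 times. The RefSeq starts used for Dusp8 and Dusp1 lay inside their GENCODE gene models, 559 and 53656 bases downstream of the first base. So did those of Dusp3 (2222 bases), Dusp5 (36 bases) and Dusp10 (21079 bases). The bases just after the RefSeq start were found in a transcript for the other windows but not for Dusp8. Its positions are therefore less certain. By log2 fold change, Dusp8 was the member that rose most (1.54) and Dusp1 the member that changed least (-0.05). Whether the element bears on either value was not tested.

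Of the 10 members, 9 had a RefSeq window, and Dusp4 was not searched. The shorter CRE letters TGACG, which the full element also contains, were found on either strand in 4 of 9 members (Dusp1, Dusp5, Dusp8 and Dusp16), against 27.7% of the windows of tested genes. AP-1 letters TGANTCA were found in 0 of 9 members, against 4.44%, and the loose NF-kB pattern in 7 of 9, against 60.8%. Between the 36 pairs of member windows, the longest shared word ran from 7 to 15 bases, with a median of 9. One of these words was shared by Dusp8 and Dusp16, the members that rose, and was picked after it had been seen. It is printed in capitals with 10 bases on each side, from the minus strand of GRCm38.p6 at chr7:142095300-142095331 and chr6:134792650-134792681.
Dusp8: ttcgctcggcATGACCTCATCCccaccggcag
Dusp16: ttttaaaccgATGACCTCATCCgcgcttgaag
The word of 12 bases began at position -37 of Dusp8 and at position -43 of Dusp16, and 3 of the 11187 windows held it, these 2 included. Words of 15 bases (Dusp7 and Dusp16) and 13 bases (Dusp3 and Dusp8) were shared by pairs that moved in opposite directions. These are matches of letters and not measured binding sites.

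Genes at 1 TPM or more numbered 11412 to 11517 in the LPS group and 11648 to 11730 in the LPS + UDCA group. The groups were therefore apart on this count, and no pair of libraries held identical values. The table gives TPM (a measure of abundance relative to the whole library that corrects for transcript length) and no read counts, so the depth behind each value is unknown. Of 10 macrophage markers, 8 were tested, and their summed level was 4218 to 4454 TPM under LPS and 2052 to 2312 TPM under LPS + UDCA. Mertk was listed at 0 in all 8 libraries and Marco at 0 in 7. Of the macrophage markers, 2 were called higher and 4 lower, including Itgam (176 ± 11.3 to 22.7 ± 2.50 TPM) and Fcgr1 (37.7 ± 1.35 to 107.2 ± 9.20 TPM, SD, n = 4). T cell markers summed to 16.6 to 23.3 TPM under LPS and 9.32 to 10.6 TPM under LPS + UDCA, nearly all of it Lck, with Cd3e, Cd3g and Cd8a at 0. B cell markers summed to 3.1 to 4.5 and 0.35 to 1.6 TPM, nearly all of it Cd79b. Epithelial and fibroblast markers stayed at or below 0.19 TPM in sum, and erythroid markers at or below 2.47 TPM. The part of the marker changes in the results below was not tested. In these bulk samples of the J774A.1 line, a change in all cells and a change in some of them cannot be told apart.

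Each gene was tested with limma on log2(TPM + 1) over all genes, and a difference passed when its Benjamini-Hochberg FDR was under 0.05. A gene was called when its TPM + 1 also changed by at least 2-fold. A gene can therefore pass 2-fold on TPM and not be called. UDCA moved much of the transcriptome: 17.1% of tested genes were called (8.71% higher and 8.44% lower), and 72.5% passed the FDR alone (40.2% higher and 32.3% lower). Among the phosphatases, 5 of 10 were called, 4 lower and 1 higher, and 8 of 10 passed the FDR alone, 6 lower and 2 higher. In 8 of 10 members the TPM ranges of LPS and LPS + UDCA libraries were apart, against 66.8% of all tested genes, so the FDR count and the count without overlap were both near the background. The median log2 fold change of the members was -0.30, beside 0.08 over all tested genes.

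**Figure D1:**
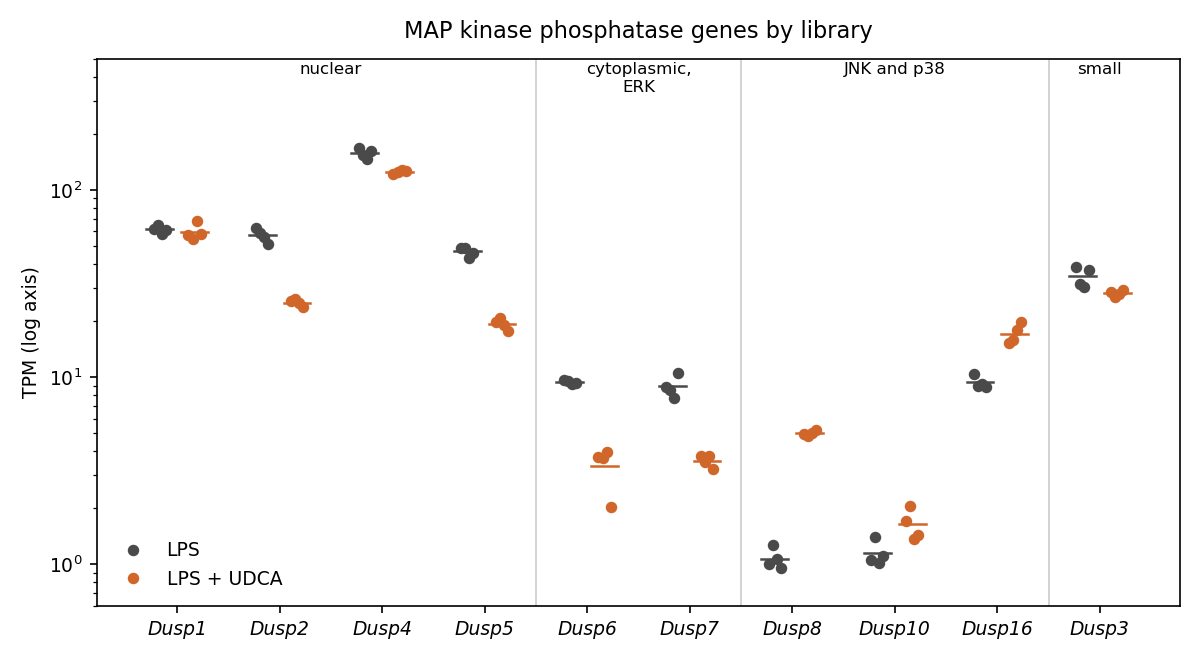
TPM of the 10 MAP kinase phosphatase genes in each library, on a log axis, with 4 LPS and 4 LPS + UDCA libraries as points and the group means as short lines. The groups are apart for every gene except Dusp1 and Dusp10.

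Within the nuclear class, Dusp5 and Dusp2 fell, Dusp4 fell by less than 2-fold, and Dusp1 did not pass the test. Dusp5, a phosphatase that acts on ERK and holds it in the nucleus, was at 49.19, 49.21, 43.13 and 46.0 TPM in the LPS libraries and at 19.72, 20.56, 19.06 and 17.68 TPM in the LPS + UDCA libraries. Every LPS + UDCA library was below every LPS library. The mean fell from 46.9 ± 2.92 to 19.3 ± 1.22 TPM (SD, n = 4 each), a 2.43-fold difference with a log2 fold change of -1.24 (SE 0.063, 95% interval -1.38 to -1.10, limma FDR 2.2e-07).

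Dusp2, first described as a phosphatase of activated immune cells, stood at 62.77, 59.12, 56.25 and 51.33 TPM under LPS and at 25.4, 26.05, 24.8 and 23.54 TPM under LPS + UDCA. Again the groups did not overlap, and the LPS + UDCA libraries lay within a narrow range. The mean fell from 57.4 ± 4.83 to 24.9 ± 1.07 TPM, or 2.30-fold (log2 fold change -1.17, SE 0.065, 95% interval -1.31 to -1.02, limma FDR 4.0e-07).

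Dusp4, which acts on ERK and JNK, was the most abundant member in both groups. Its values were 167.3, 154.16, 146.43 and 161.04 TPM under LPS and 121.64, 124.32, 127.79 and 126.63 TPM under LPS + UDCA. The highest LPS + UDCA library was below the lowest LPS library, although the fold was small. The mean fell from 157 ± 8.98 to 125.1 ± 2.72 TPM, a log2 fold change of -0.33 (SE 0.045, 95% interval -0.43 to -0.22, limma FDR 1.4e-04). Of all tested genes, 27.7% had a lower fold change than Dusp4.

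Dusp1, the phosphatase known for restraining p38 and JNK in LPS-stimulated macrophages, gave 61.52, 64.8, 58.43 and 61.28 TPM under LPS. Under LPS + UDCA it gave 57.35, 54.96, 67.86 and 57.97 TPM. The groups overlapped, and the highest and the lowest of the 8 values both came from LPS + UDCA libraries. The means were 61.5 ± 2.61 and 59.5 ± 5.70 TPM, with a log2 fold change of -0.05 (SE 0.067, 95% interval -0.20 to 0.10, limma FDR 0.52). The interval left room for a decrease or an increase well under 2-fold. An exact two-sided permutation test on TPM gave p = 0.49.

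Both cytoplasmic ERK phosphatases fell. Dusp6, an ERK phosphatase whose transcription is itself driven by ERK signalling, was at 9.6, 9.58, 9.14 and 9.27 TPM under LPS. Its values under LPS + UDCA were 3.73, 3.7, 3.96 and 2.02 TPM. The LPS libraries were nearly equal, and 1 LPS + UDCA library, replicate 4, was below the other three. The mean fell from 9.40 ± 0.229 to 3.35 ± 0.896 TPM, or 2.80-fold (log2 fold change -1.28, SE 0.15, 95% interval -1.62 to -0.94, limma FDR 4.8e-05). Without LPS + UDCA replicate 4, the log2 fold change was -1.12 (SE 0.069).

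Dusp7, a close relative of Dusp6, was at 8.79, 8.56, 7.72 and 10.53 TPM under LPS and at 3.78, 3.51, 3.77 and 3.24 TPM under LPS + UDCA. The lowest LPS library was above every LPS + UDCA library. The mean fell from 8.90 ± 1.18 to 3.58 ± 0.256 TPM, or 2.49-fold (log2 fold change -1.11, SE 0.097, 95% interval -1.33 to -0.89, limma FDR 7.1e-06). Dusp9, the remaining phosphatase of the ERK class, is not among the 10 genes and averaged 0.135 TPM under LPS and 0.09 TPM under LPS + UDCA, below the level at which genes were tested.

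**Figure D2:**
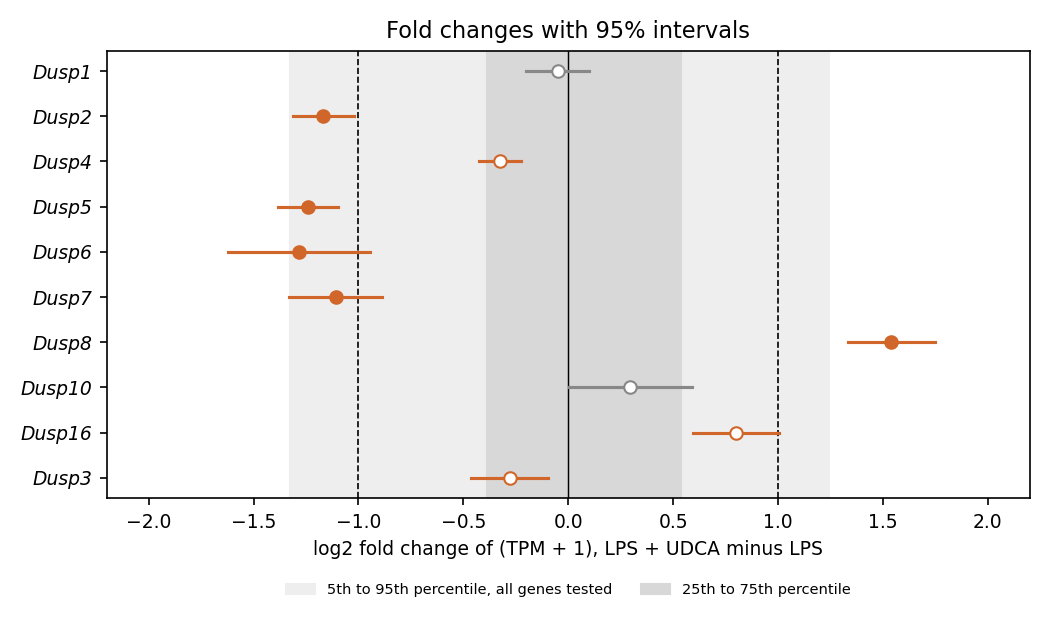
Log2 fold changes of (TPM + 1), LPS + UDCA minus LPS, as points with 95% intervals, filled where called at 2-fold and FDR, open orange where past the FDR alone and grey where past neither. The dark band holds the middle 50% of all tested genes (-0.39 to 0.54) and the light band the 5th to 95th percentile (-1.33 to 1.24); Dusp8 (1.54) is the one member beyond the light band.

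In the JNK and p38 class, Dusp8 and Dusp16 rose. Dusp8 was at 1.0, 1.27, 1.06 and 0.95 TPM under LPS and at 4.97, 4.86, 5.03 and 5.18 TPM under LPS + UDCA. All 4 LPS + UDCA libraries lay within a narrow range far above the LPS libraries. The mean rose from 1.07 ± 0.141 to 5.01 ± 0.133 TPM, 4.68-fold on TPM, with a log2 fold change of (TPM + 1) of 1.54 (SE 0.092, 95% interval 1.33 to 1.75, limma FDR 6.0e-07). The added 1 understates the change of a gene this low, and with a pseudocount of 0.1 the log2 fold change was 2.13. Of all tested genes, 97.5% had a lower fold change than Dusp8.

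Dusp16, which acts on JNK and moves between nucleus and cytoplasm, was at 10.43, 8.99, 9.16 and 8.82 TPM under LPS. With UDCA it was at 15.11, 15.8, 17.83 and 19.57 TPM. The lowest LPS + UDCA library was above the highest LPS library. The mean rose from 9.35 ± 0.733 to 17.1 ± 2.02 TPM, or 1.83-fold, which stayed under the 2-fold rule (log2 fold change 0.80, SE 0.090, 95% interval 0.60 to 1.00, limma FDR 3.6e-05).

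Dusp10, a phosphatase of JNK and p38 in immune cells, was the third gene of this class and was low in both groups, at 1.05, 1.4, 1.02 and 1.1 TPM under LPS and 1.7, 2.04, 1.37 and 1.43 TPM under LPS + UDCA. The groups overlapped, since the highest LPS library exceeded the lowest LPS + UDCA library. The means were 1.14 ± 0.175 and 1.64 ± 0.306 TPM, with a log2 fold change of 0.29 (SE 0.13, 95% interval 0.0020 to 0.59) and a limma FDR of 0.066. An exact two-sided permutation test on TPM gave p = 0.057. Over the alternative settings the FDR of Dusp10 ran from 0.021 to 0.27, so its side of the threshold depended on the setting.

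Dusp3, which acts on ERK and JNK, was at 38.6, 31.53, 30.29 and 37.44 TPM under LPS and at 28.51, 26.78, 27.81 and 29.33 TPM under LPS + UDCA. The gap between the groups was narrow, from 29.33 to 30.29 TPM, with wider spread among the LPS libraries. The mean fell from 34.5 ± 4.16 to 28.1 ± 1.08 TPM (log2 fold change -0.28, SE 0.081, 95% interval -0.46 to -0.094, limma FDR 0.012). For all 8 members without overlap the exact permutation test on TPM gave p = 0.029, the smallest that 4 against 4 libraries can give.

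The order of the levels also differed between the groups. TPM is per length, so the levels can be set side by side. Under LPS, the order of mean TPM from high to low was Dusp4, Dusp1, Dusp2, Dusp5, Dusp3, Dusp6, Dusp16, Dusp7, Dusp10 and Dusp8. The libraries of the neighbours Dusp1 and Dusp2, Dusp6 and Dusp16, Dusp16 and Dusp7, and Dusp10 and Dusp8 overlapped, so the order within these pairs was not resolved. Under LPS + UDCA, the order was Dusp4, Dusp1, Dusp3, Dusp2, Dusp5, Dusp16, Dusp8, Dusp7, Dusp6 and Dusp10, with overlap between Dusp5 and Dusp16, Dusp7 and Dusp6, and Dusp6 and Dusp10. Dusp8, which with Dusp10 had the lowest levels of the 10 genes under LPS, was above Dusp6 and Dusp7 in every LPS + UDCA library.

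The summed TPM of the 10 genes was 387 ± 19.5 under LPS (362.63 to 410.25) and 287.6 ± 8.06 under LPS + UDCA (281.91 to 299.28). Dusp4 alone made up 40.6% ± 0.778 of this sum under LPS and 43.5% ± 0.702 under LPS + UDCA. Dusp1, whose own level did not pass the test, went from 15.9% to 20.7% of the smaller sum. Dusp2 went from 14.8% to 8.68% and Dusp5 from 12.1% to 6.70%. Shares of one sum are tied to each other, and they are given as a description without a test.

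**Figure D3:**
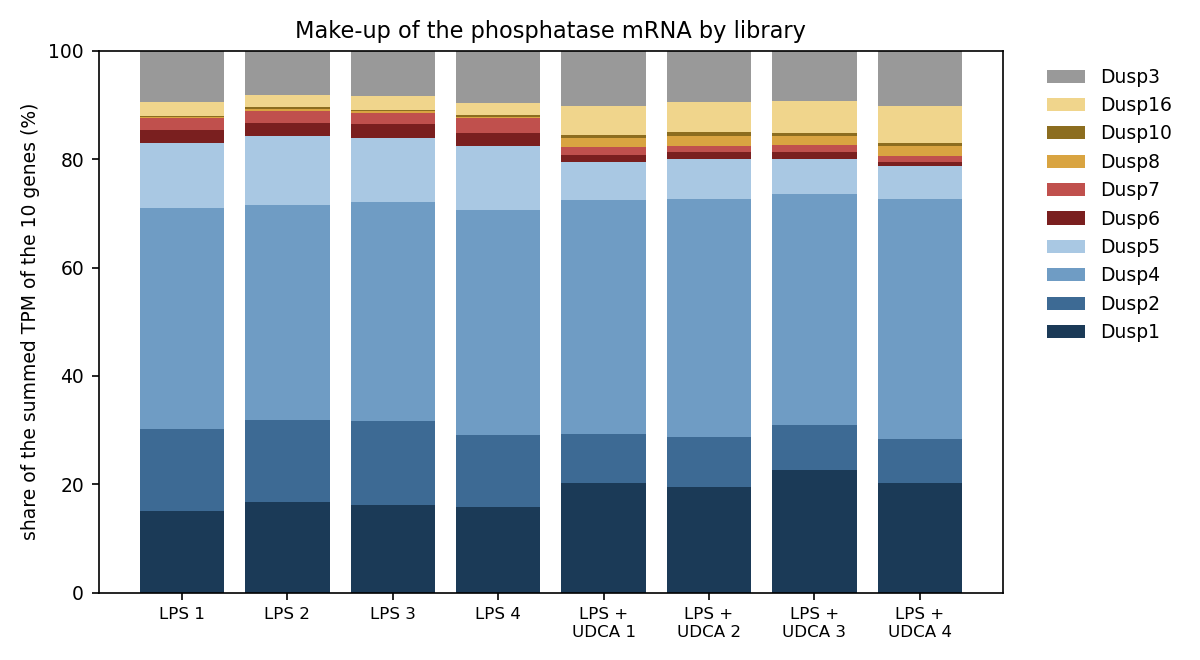
Share of each gene in the summed TPM of the 10 phosphatases (percent), 1 bar per library, 4 LPS and 4 LPS + UDCA. The nuclear genes (blue) hold 83.4% on average under LPS and 79.6% under LPS + UDCA, the ERK class (red) shrinks from 4.73% to 2.41%, and the JNK and p38 class (yellow) grows from 2.99% to 8.25%.

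By class, the nuclear genes summed to 323 ± 15.3 TPM under LPS and 228.8 ± 7.17 TPM under LPS + UDCA. Dusp6 and Dusp7 together gave 18.39, 18.14, 16.86 and 19.8 TPM under LPS and 7.51, 7.21, 7.73 and 5.26 TPM under LPS + UDCA. Dusp8, Dusp10 and Dusp16 together gave 12.48, 11.66, 11.24 and 10.87 TPM under LPS and 21.78, 22.7, 24.23 and 26.18 TPM under LPS + UDCA. The ERK class therefore exceeded the JNK and p38 class in all 4 LPS libraries and was below it in all 4 LPS + UDCA libraries. The nuclear genes and Dusp3 are in neither sum. Among them, Dusp5 acts on ERK and averaged 46.9 TPM under LPS and 19.3 TPM under LPS + UDCA. Dusp4, which acts on ERK and JNK, averaged 157 and 125.1 TPM, above either class sum in both groups. Dusp2 averaged 57.4 and 24.9 TPM. Dusp1, which restrains p38 and JNK, averaged 61.5 and 59.5 TPM. The reversal therefore describes these classes and not all phosphatases of each kinase. The ratio of the ERK class to the JNK and p38 class was 1.59 ± 0.160 under LPS and 0.296 ± 0.0643 under LPS + UDCA. Dusp6 and Dusp16, nearly equal under LPS (ratio 1.01 ± 0.0657), stood at a ratio of 0.202 ± 0.0664 under LPS + UDCA.

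**Figure D4:**
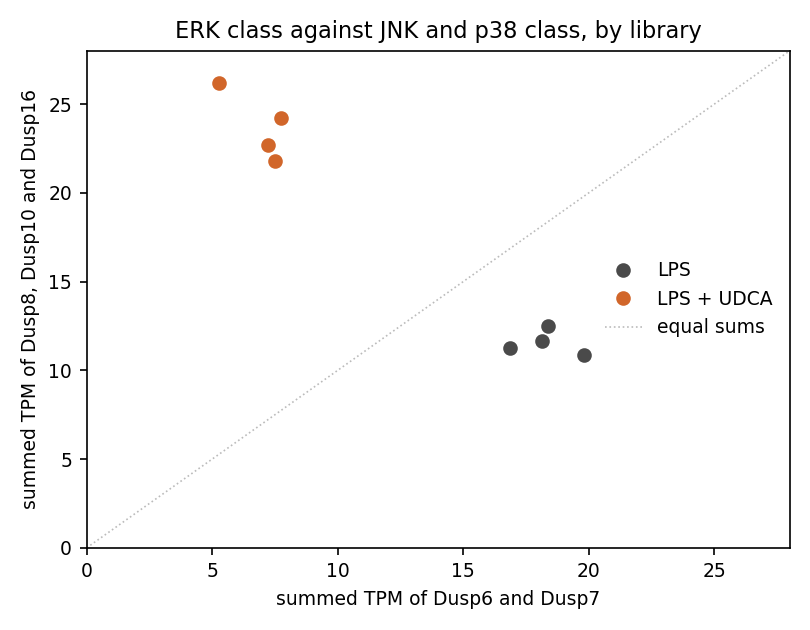
Summed TPM of the ERK class (Dusp6 and Dusp7, x axis) against that of the JNK and p38 class (Dusp8, Dusp10 and Dusp16, y axis), 1 point per library. The 4 LPS libraries lie at 16.86 to 19.8 and 10.87 to 12.48 TPM, and the 4 LPS + UDCA libraries at 5.26 to 7.73 and 21.78 to 26.18 TPM. The nuclear genes and Dusp3 are in neither sum.

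MAP kinase genes, among them those that these phosphatases act on, were read from the same fit. The list is wider than the ERK, JNK and p38 kinases described above, and the counts and the median include the others. Of 14 MAP kinase genes 11 were tested, 1 was called higher and 0 lower, and 3 passed the FDR as higher and 5 as lower, with a median log2 fold change of -0.18. The calls depended on the scaling, with 0 higher and 2 lower under median-of-ratios scaling (Mapk3 and Mapk11) and 0 higher and 1 lower under quantile normalization (Mapk11). Mapk9, a JNK gene, rose from 12.6 ± 1.22 to 26.3 ± 2.0 TPM (log2 fold change 1.01), and it fell short of 2-fold under median-of-ratios scaling (0.91) and quantile normalization (0.95). Mapk3, Mapk8, Mapk11 and Mapk14 were chosen after their values had been seen. Mapk3, an ERK gene, fell from 112.7 to 58.7 TPM (log2 fold change -0.93, limma FDR 2.9e-07), short of the 2-fold call that it reached under median-of-ratios scaling (-1.04). Mapk8, the other JNK gene expressed here, rose from 12.4 to 19.0 TPM (0.59, limma FDR 1.1e-04), and Mapk14, the main p38 gene, fell from 31.1 to 27.2 TPM (-0.18, limma FDR 0.023).

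Upstream of the MAP kinases, 0 of 6 tested MAP kinase kinases were called, with 3 higher and 3 lower by FDR alone. Of 16 tested MAP kinase kinase kinases, 2 were called higher (1 under median-of-ratios scaling or quantile normalization) and 0 lower, and 5 passed the FDR as higher and 8 as lower. Map3k5, a stress-responsive kinase of the JNK and p38 pathways, rose from 1.99 ± 0.372 to 5.91 ± 0.650 TPM (log2 fold change 1.21). Of 5 tested scaffold genes 0 were called, with 3 higher and 2 lower by FDR.

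Downstream, the genes known as outputs or feedback regulators of ERK signalling were mostly lower, as Dusp6 was. Of 13 tested, 7 were called lower and 0 higher, and 10 passed the FDR as lower and 2 as higher, with a median log2 fold change of -1.03 beside 0.08 for all tested genes. Ccnd1, the cell cycle gene cyclin D1, fell from 84.8 ± 5.38 to 7.92 ± 0.693 TPM (log2 fold change -3.27, limma FDR 1.6e-09). Spry2, a feedback inhibitor of receptor signalling to ERK that was chosen after its values had been seen, fell from 6.87 ± 0.588 to 2.86 ± 0.278 TPM (-1.03). The immediate early factor Egr1 and the ETS factor Etv4, both chosen after their values had been seen, fell by 3.07 and 3.0 on the log2 scale. Fosl1, an AP-1 subunit in the same list, rose by 0.41. Of 9 tested kinases activated by MAP kinases, 0 were called, with 2 higher and 5 lower by FDR and a median of -0.31. Under median-of-ratios scaling 2 of them were called lower, and under quantile normalization 1.

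Other phosphatases were read from the same fit. Of 8 tested atypical dual-specificity phosphatases, 1 was called higher and 1 lower, with a median log2 fold change of 0.11. Dusp11, an RNA phosphatase, rose from 36.3 ± 1.92 to 80.7 ± 6.91 TPM (1.13, limma FDR 5.2e-07), and Dusp14 fell from 10.9 ± 0.620 to 2.92 ± 0.737 TPM (-1.63, limma FDR 4.9e-06). Of 8 tested serine/threonine and tyrosine phosphatases that act on MAP kinases, 0 were called, with 4 higher and 2 lower by FDR and a median of 0.08, and under median-of-ratios scaling or quantile normalization 1 was called lower.

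**Figure D5:**
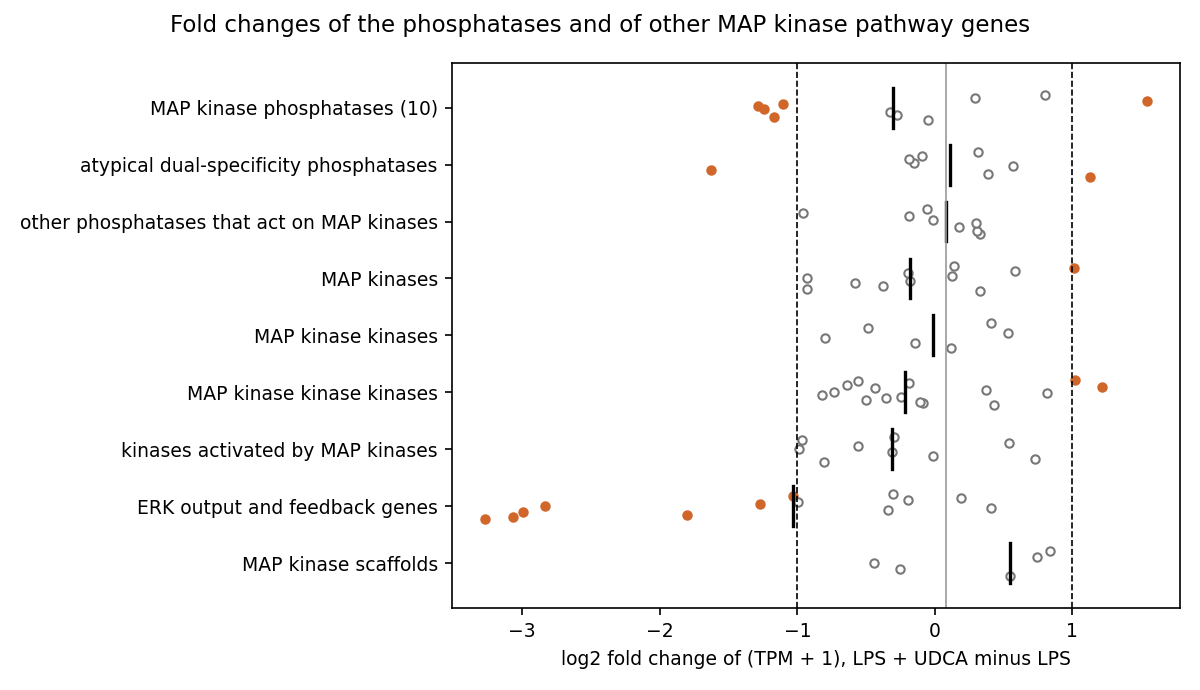
Log2 fold change of (TPM + 1), LPS + UDCA minus LPS, for each tested gene (points, orange where called) of the phosphatases and of 8 other lists, with the list median as a black bar and the median of all tested genes (0.08) as a grey line. Dashed lines mark 2-fold; the ERK output and feedback genes reach down to -3.27.

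On GRCm38 (GENCODE M21), Dusp2, Dusp4, Dusp6 and Dusp7 overlapped no other annotated gene. Dusp5 (chr19:53529109-53542431, plus strand) and Dusp16 (chr6:134715468-134792625, minus strand) each overlap 1 annotated antisense gene, and Dusp8 (chr7:142079490-142095843, minus strand) overlaps 1 non-coding gene on the opposite strand. Dusp10 and Dusp3 overlap 1 and 2 genes on the opposite strand, and the Dusp1 model overlaps 4 genes, 2 on the opposite strand, Ergic1 among them, and 2 on its own strand. The source of reads that fall in an overlap on the same strand cannot be told apart, nor that of reads in an overlap on opposite strands if counting ignored strand, which the sources used here do not state. At most 1.51% of the 31-base words of a member's transcripts (in Dusp8) occurred in transcripts of another gene.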

How the data were processed

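J774A.1 RNA libraries (TruSeq kit, Illumina HiSeq) were analysed, with 4 per group, grouped by the sample labels. The authors deposited TPM per gene, 1 column per library. The unit was inferred from column sums, which were 973190 to 977485 under LPS and 958918 to 962737 under LPS + UDCA. The main fit did not rescale these sums. The submitters' processing notes name Bowtie 0.12.2, GRCm38 and mm10, and the counting program is not given in the sources used here. Read depth cannot be had from TPM, and counting error was therefore left out.

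Genes averaging 1 TPM or more (11796) entered a linear model of log2(TPM + 1) in limma 3.58.1 (R 4.3.3; lmFit, then eBayes with trend), and p-values were adjusted over all of them by Benjamini-Hochberg. The procedure was run on simulated data with independent noise and few changed genes. In the real data most tested genes passed the FDR, so the simulation does not measure accuracy here. For each member an exact two-sided permutation test on TPM was added. Promoter windows are from RefSeq (GRCm38.p6) and gene positions from GENCODE M21, which held 55227 of the 55487 identifiers. Python 3.11.15, pandas 2.3.3, scipy 1.17.1 and matplotlib 3.10.9 were used.

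All 10 members were named, with the highest and lowest called gene of each pathway list and genes that check the cell type. Genes named outside this rule were Mapk3, Mapk8, Mapk11, Mapk14, Dusp9, Egr1, Etv4, Spry2 and Fosl1. The members and lists were chosen with earlier results of these data known, and lists were described by counts and medians without a set test. Some genes of the lists are not reported here by name. Alternatives covered scaling, the filter, the pseudocount, the variance trend, a replicate block and leaving out each library.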

Additional observations from a re-analysis of the deposited data

Results flagged for a closer look

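For every quantity, the distance of the highest or lowest of 4 libraries from its nearest neighbour was set against the range of the 4 (Dixon's test at the 5% level). Of 78 sets of 4 values, 7 passed, where about 3.9 are expected by chance. The lowest Dusp6 value under LPS + UDCA was 2.02 TPM, in replicate 4, against 3.7 to 3.96 TPM in the other libraries. The same library had the lowest share of Dusp6 in the summed TPM of the 10 genes (0.705%, others 1.31 to 1.32%) and the lowest share of the ERK class (1.84%, others 2.55 to 2.66%). The summed nuclear class under LPS + UDCA was highest in replicate 3, at 239.51 TPM (others 224.11 to 225.89), the library in which Dusp1 was highest. In LPS replicate 4 the share of Dusp2 was lowest, at 13.2% (others 15.2 to 15.5%), and the share of Dusp7 was highest, at 2.72% (others 2.13 to 2.2%). In LPS replicate 2 the share of Dusp5 was highest, at 12.7% (others 11.9 to 12.0%).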

How the results depend on the processing

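Under 16 alternatives, 8 of which left out a library, 158 fold changes of the 10 phosphatases were recomputed, and 157 kept their direction and their side of the FDR threshold. The exception was Dusp10, which passed without a variance trend (log2 fold change 0.29, limma FDR 0.021). The count called at 2-fold was 5 under each alternative except a filter at a mean of 5 TPM, where it was 4 because Dusp8 and Dusp10 were no longer tested, and under that filter 683 genes were called higher in place of 1028 because 8907 genes were tested. The 4 pairs of libraries with the same replicate number had correlations of their deviations between -0.035 and 0.15, beside -0.14 to 0.16 for different numbers, so the numbers were not taken as pairs. With the replicate block, 1034 genes were called higher and 1000 lower, and 5 phosphatases were called. Median-of-ratios scaling moved the median of all tested genes from 0.08 to -0.02, with 41.0% of calls higher in place of 50.8%. Under it and quantile normalization, 8 of 13 ERK output genes were called lower. Taking Dusp1 out of the sum raises every other share by arithmetic, and 17 of 18 shares of the other phosphatases moved by at least 1 SD. That count therefore does not test how stable the shares are. TPM holds no read depth, so the error of low genes such as Dusp8 and Dusp10 rests on the spread of 4 libraries alone.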
